A study of Mus musculus with 90 samples.

Results

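The Toll-like receptor genes Tlr1, Tlr2, Tlr3, Tlr4, Tlr6, Tlr7, Tlr8, Tlr9 and Tlr13 and the gene of their adaptor protein, Myd88, were followed through melanoma allografts of mice treated with an antibody against PD-L1. The 10 genes were chosen by name, and every probe set that the array's annotation assigns to them was taken. All 10 were measured, by 16 probe sets, among 18193 genes with a probe set of their own. Tlr4 had 4 probe sets, Tlr7 had 3, Tlr3 had 2 and the other genes had 1 each. Where a gene had several, it was represented by the brightest on average, and the others are given beside it.

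Toll-like receptors are membrane proteins with which cells sense molecules of microbes and of damaged cells. Tlr2, with Tlr1 or Tlr6 as its partner, binds lipoproteins at the cell surface, and Tlr4 binds lipopolysaccharide there. Tlr3, Tlr7, Tlr8, Tlr9 and Tlr13 sit in endosomes and sense nucleic acids. All of these receptors except Tlr3, which uses Ticam1, signal through Myd88 to kinases of the Irak family and to NF-kappa-B and interferon regulatory factors. In tumours they are best known from macrophages, dendritic cells and B cells, and some tumour cells carry them as well.

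RNA from 90 subcutaneous melanomas was hybridised to Affymetrix mouse arrays, with 1 array per tumour sample. Every tumour had the genotype Hgftg;Cdk4R24C/R24C and every mouse the strain name B6.cBrd, so an Hgf transgene and the R24C form of Cdk4 were shared by all 7 groups, and the labels name an allograft model without saying how many tumour lines were transplanted. Tumours given the anti-PD-L1 antibody (mouse IgG1 with the D265A change, 10 mg/kg) were grouped by their growth. Stabilization tumours (3) kept their volume between consecutive measurements, Relapse tumours (6) shrank below measurable size and regrew under further doses, and Responder tumours (27) shrank. GrowthDelay tumours (2) became visible only after treatment, and NonResponder tumours (23) kept growing and were taken at times matched to the Responders. ControlIgG tumours (22) received a control antibody at 10 mg/kg and PBS tumours (7) received the vehicle at 10 ml/kg. Because the groups treated with the antibody were defined by outcome, they can also differ in tumour size and in the number of doses. Whether each array stands for another mouse is not stated in the labels, and the p-values therefore refer to the spread among these samples.

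The sample titles are numbers that lie in 4 ranges without overlap (title series from here on), and the labels do not say what the ranges stand for. The larger title series holds 17 Responder and 14 NonResponder arrays, and the smaller one holds 10 and 9. Both hold 3 Relapse arrays, all GrowthDelay arrays lie in the larger series and all Stabilization arrays in the smaller. Another 8 ControlIgG arrays and 4 PBS arrays form ranges of their own. The title series was a term in the model throughout, and differences within a series are given beside some of the fitted ones.

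The values are RMA expression values on the log2 scale, from 2.19 to 14.8, with array medians between 5.71 and 5.90. Each probe set has its own affinity, so levels are compared between samples and never between genes. Melanocyte markers (Pmel, Mlana, Tyr, Tyrp1, Dct, Mitf and Sox10) were all measured, and their mean value lay between 10.8 and 11.5 in every PBS and ControlIgG tumour. A set of 7 arrays stood apart from the rest, by a mean correlation with the other arrays under 0.96 or by a mean of lymph node stroma markers above 7. They were Responder replicates 4, 20 and 21, NonResponder replicate 14, Stabilization replicates 1 and 2, and Relapse replicate 6. Responder replicates 20 and 21 and Stabilization replicate 1 had the lowest melanocyte means of all arrays, 7.56, 7.40 and 7.72. NonResponder replicate 14 had a lymph node mean of 9.10 and a macrophage mean of 11.9. Results that rest on these arrays are given with and without them.

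Responder against NonResponder asks how tumours that shrank under the antibody differed from those that grew under it. Of the 10 genes, 7 were higher in Responder tumours, 1 (Tlr9) was lower and 2 (Tlr3 and Tlr4) did not pass the test, which was limma's moderated test with a Benjamini-Hochberg adjusted p under 0.05 over all 18193 genes. Over all genes 47.0% passed in this comparison, 17.2% higher and 29.8% lower. The median difference of the 10 genes was 0.39 on the log2 scale, against -0.06 over all genes. The largest differences were those of Tlr13, Tlr2, Tlr1 and Tlr7, between 0.67 and 0.94. In a bulk tumour sample more cells that express a gene and more of its RNA per cell cannot be told apart.

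The promoters of the 3 genes with the largest differences and of Myd88 are printed here as they stand in RefSeq on GRCm38.p6. Whether these genes share a control at their promoters was not tested. Each is the sequence of 250 bases before to 50 bases after the annotated start, on the strand of the gene. Capitals mark matches, on either strand, to GAGGAAGT (PU.1), GGNNTTTCC (NF-kappa-B) or GAAANNGAA (interferon-stimulated response element), motifs of factors active in myeloid and interferon-treated cells.
Tlr13 (chrX:106143025-106143324, plus strand): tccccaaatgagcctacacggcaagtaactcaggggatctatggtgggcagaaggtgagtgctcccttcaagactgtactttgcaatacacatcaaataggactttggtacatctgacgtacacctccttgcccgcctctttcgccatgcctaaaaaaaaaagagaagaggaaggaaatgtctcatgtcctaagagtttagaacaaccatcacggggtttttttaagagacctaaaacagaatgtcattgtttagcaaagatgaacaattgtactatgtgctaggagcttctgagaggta
Tlr2 (chr3:83841559-83841858, minus strand): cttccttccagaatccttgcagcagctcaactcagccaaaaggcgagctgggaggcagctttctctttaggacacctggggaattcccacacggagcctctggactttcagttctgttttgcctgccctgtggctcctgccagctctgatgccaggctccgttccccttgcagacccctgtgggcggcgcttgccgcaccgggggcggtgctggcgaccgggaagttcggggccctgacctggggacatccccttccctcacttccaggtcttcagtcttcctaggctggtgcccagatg
Tlr1 (chr5:64933509-64933808, minus strand): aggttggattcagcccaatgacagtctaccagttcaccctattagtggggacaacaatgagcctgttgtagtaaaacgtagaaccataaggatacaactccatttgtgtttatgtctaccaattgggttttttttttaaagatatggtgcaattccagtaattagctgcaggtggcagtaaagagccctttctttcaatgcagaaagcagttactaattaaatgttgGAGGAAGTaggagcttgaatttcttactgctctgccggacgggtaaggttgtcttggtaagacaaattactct
Myd88 (chr9:119339969-119340268, minus strand): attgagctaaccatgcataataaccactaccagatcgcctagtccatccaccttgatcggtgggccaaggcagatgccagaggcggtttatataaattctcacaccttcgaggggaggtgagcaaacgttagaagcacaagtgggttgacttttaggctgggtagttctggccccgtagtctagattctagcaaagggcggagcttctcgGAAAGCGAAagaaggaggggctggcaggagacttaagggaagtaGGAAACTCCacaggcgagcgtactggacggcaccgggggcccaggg
Promoter entries were matched for 8 of the 10 genes, 10 entries in all, and Tlr4 and Tlr7 had none. The printed Tlr13 and Tlr2 promoters held none of the 3 motifs in this window. The printed Tlr1 entry held the PU.1 letters from position -23, counted from the annotated start, and the Myd88 promoter held the interferon element from position -40 and the NF-kappa-B letters, on the opposite strand, from position 4. Among the other entries, Tlr9 (chr9:106222348-106222647) held the PU.1 letters, Tlr3 (chr8:45410331-45410630) the NF-kappa-B letters, and Tlr8 (chrX:167264280-167264579) and Tlr6 (chr5:64959117-64959416) the interferon element. Tlr1 and Tlr6 have 2 entries each, and their other entries (chr5:64932650-64932949 and chr5:64959999-64960298) held none of the 3. Of all 32851 promoters of this length, 3.20% held the PU.1 letters, 5.82% the NF-kappa-B letters and 8.56% the interferon element. These matches are letters in a sequence, and no binding was measured.

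Among the surface receptors, Tlr2 is the shared partner that binds bacterial lipoproteins. Its lowest, median and highest values were 6.14, 7.56 and 9.43 in Responder tumours, against 5.98, 6.72 and 8.70 in NonResponder tumours. The ranges overlapped over both series together, but in the smaller series they did not, with 7.11 to 9.43 in Responder and 6.34 to 6.93 in NonResponder tumours. The fitted difference was 0.85 ± 0.16 (SE; limma adjusted p = 0.00017), which is 1.81-fold.

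Tlr1 joins Tlr2 for lipoproteins with a fully acylated end. It ran from 5.63 over a median of 7.28 to 9.58 in Responder tumours, against 5.02, 6.37 and 9.28 in NonResponder tumours. The NonResponder value of 9.28 belonged to replicate 14, and the ranges overlapped in each series. Tlr1 was 0.83 ± 0.22 higher (limma adjusted p = 0.00255). Tlr6, the other partner of Tlr2, covered 6.37 to 7.08 with a median of 6.57 in Responder tumours, against 6.00 to 6.96 with a median of 6.46 in NonResponder tumours. It was higher by 0.17 ± 0.06 (limma adjusted p = 0.0193), and this call was lost under median centring (0.08, adjusted p = 0.204) and under quantile normalization (0.12, adjusted p = 0.088).

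Tlr4, the receptor for lipopolysaccharide, showed 7.52, 8.08 and 8.86 as lowest, median and highest value in Responder tumours, against 7.12, 8.31 and 9.02 in NonResponder tumours. The ranges overlapped almost fully. The difference of -0.17 ± 0.09 did not pass (limma adjusted p = 0.123), with a 95% interval from -0.36 to 0.02. It passed as lower under median centring and under quantile normalization, both at -0.25 (adjusted p = 0.0207 and 0.0396). The 3 other Tlr4 probe sets, from the brightest to the dimmest, gave 0.05 (adjusted p = 0.681), -0.06 (adjusted p = 0.507) and -0.12 (adjusted p = 0.0216, lower). The probe sets of this gene thus differed in sign. The probe set that passed as lower had a mean of 3.77 over all arrays, under the lowest array median of 5.71.

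Among the endosomal receptors, Tlr13, which in mice senses bacterial ribosomal RNA, had the largest difference. It reached 6.33, 8.11 and 9.76 as lowest, median and highest value in Responder tumours, against 5.73, 7.0 and 9.83 in NonResponder tumours. The highest NonResponder value was again that of replicate 14, whereas all 9 NonResponder tumours of the smaller series lay at or under 7.46 and the 10 Responder tumours there had a median of 8.19. Tlr13 was higher by 0.94 ± 0.21 (limma adjusted p = 0.000749), which is 1.92-fold.

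Tlr7 is a receptor for single-stranded RNA. It spanned 5.78 to 8.27 with a median of 7.22 in Responder tumours, against 5.49 to 9.04 with a median of 6.34 in NonResponder tumours. The NonResponder value of 9.04 belonged to replicate 14, and in the smaller series Responder tumours had a median of 7.63 and NonResponder tumours reached no more than 7.03. The difference was 0.67 ± 0.17 (limma adjusted p = 0.00253). The 2 dimmer Tlr7 probe sets gave 0.13 and 0.11 and did not pass (adjusted p = 0.283 and 0.284). Tlr8, which lies beside Tlr7 on the X chromosome and is a receptor of the same branch, had 4.66, 5.73 and 6.50 as lowest, median and highest value in Responder tumours, against 4.89, 5.24 and 6.94 in NonResponder tumours. The ranges overlapped, and the difference was 0.39 ± 0.13 (limma adjusted p = 0.012).

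Tlr3 binds long RNA duplexes and is the receptor that does not use Myd88. Its values were 7.33, 9.13 and 9.46 as lowest, median and highest in Responder tumours, against 8.14, 8.80 and 9.03 in NonResponder tumours. The 2 lowest Responder values, 7.33 and 7.42, came from replicates 20 and 21, the arrays with the lowest melanocyte means. The difference of 0.20 ± 0.12 did not pass (limma adjusted p = 0.145, 95% interval from -0.03 to 0.43). Without the 7 arrays that stand apart it was 0.31 and passed (adjusted p = 0.00537), and the second Tlr3 probe set passed with all arrays at 0.33 ± 0.12 (adjusted p = 0.0173).

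Tlr9, the receptor for unmethylated CpG DNA, was the single gene of the 10 that was lower. Responder tumours had 5.16, 5.48 and 5.90 as lowest, median and highest value, against 5.26, 5.60 and 6.23 in NonResponder tumours. The ranges overlapped widely, and the difference was -0.16 ± 0.06 (limma adjusted p = 0.0157). It was smaller, at -0.12, and did not pass under quantile normalization (adjusted p = 0.0682). The Tlr9 probe set was dim, with a mean of 5.55 over all arrays, under the lowest array median of 5.71. Of all genes that passed in this comparison 36.7% were higher, and 54.4% with dim genes left out. Tlr8 was as dim, at 5.54, and was higher. Whether the Tlr9 difference is one of dim genes in general was not tested.

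Myd88, the adaptor, had 9.12, 9.62 and 10.2 as lowest, median and highest value in Responder tumours, against 8.68, 9.25 and 10.4 in NonResponder tumours. In the smaller series the ranges did not overlap, with 9.47 to 10.2 in Responder and 9.16 to 9.39 in NonResponder tumours. Tlr2 and Myd88 were thus the 2 genes of 10 with every Responder tumour of that series above every NonResponder tumour, as were 0.577% of all genes. Myd88 was 0.40 ± 0.09 higher (limma adjusted p = 0.000706), which is 1.32-fold.

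**Figure D1:**
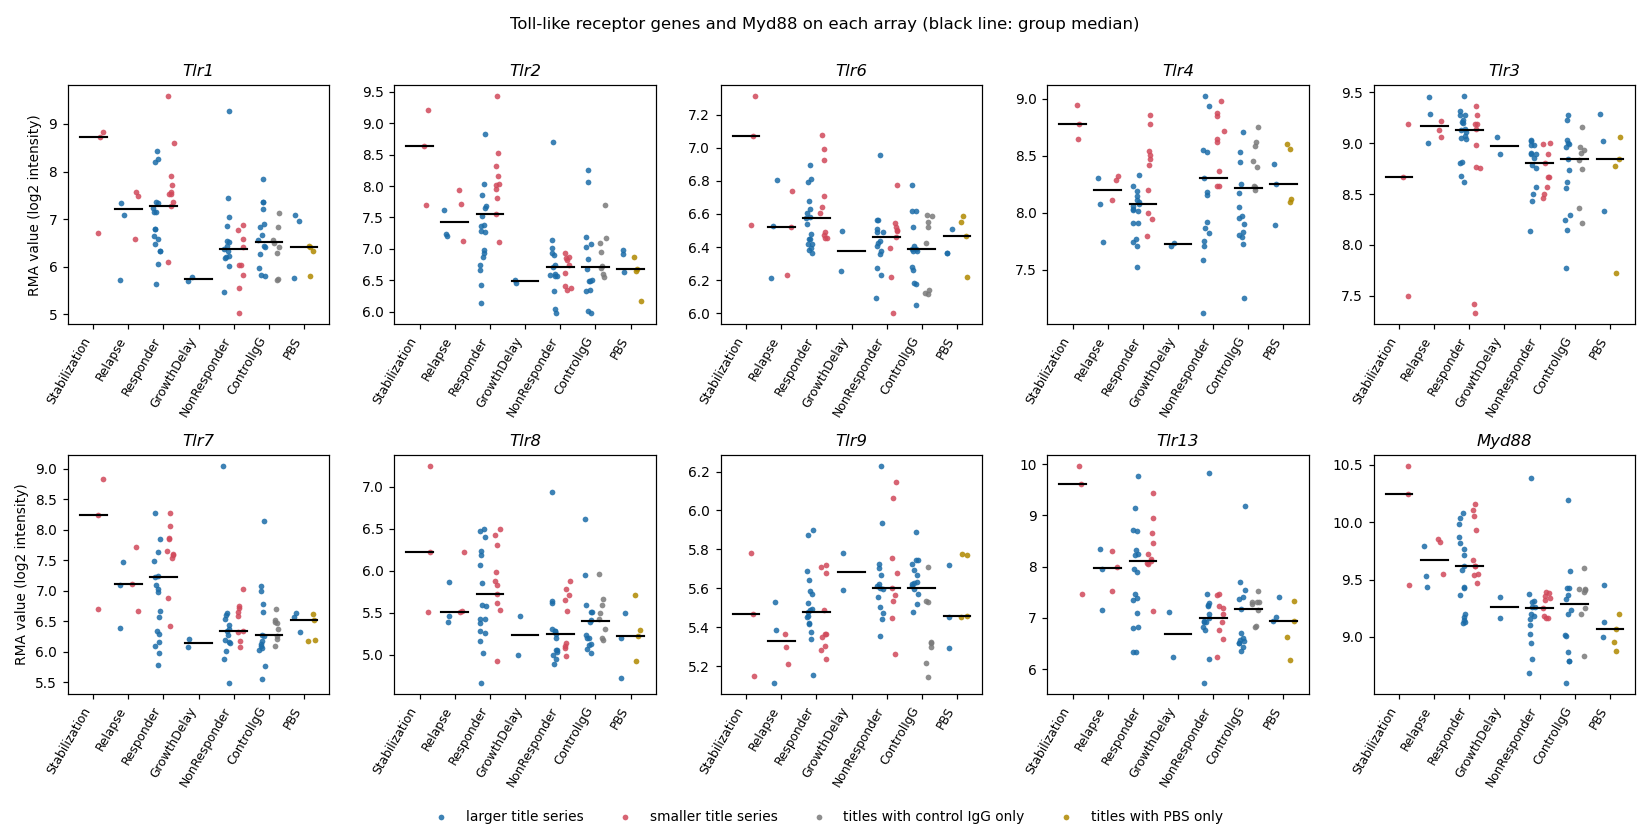
RMA value (log2 intensity, vertical axis) of each gene on each of the 90 arrays, by group along the horizontal axis and coloured by title series, with a black line at the group median. Tlr2 and Myd88 of the smaller series (red) do not overlap between Responder and NonResponder tumours, and the high NonResponder point of the larger series in Tlr1, Tlr7, Tlr8, Tlr13 and Myd88 is replicate 14.

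The differences ran the same way in both series for every gene, but they differed in size. Responder and NonResponder tumours differed in Tlr1 by 1.60 in the smaller series and by 0.35 in the larger, in Tlr2 by 1.42 and 0.50, in Tlr13 by 1.34 and 0.69, and in Tlr7 by 1.06 and 0.43. Myd88 (0.49 in the smaller and 0.34 in the larger series), Tlr8 (0.44 and 0.36), Tlr6 (0.25 and 0.11), Tlr4 (-0.26 and -0.11) and Tlr9 (-0.22 and -0.12) were closer between series. Tlr3 differed by 0.01 in the smaller series and by 0.31 in the larger. When each group had its own mean in each series, no gene of the 18193 passed the test of a difference between the series (limma, smallest adjusted p = 0.0586), and 2418 had an unadjusted p under 0.05. Tlr1 and Tlr2 were among these, at 1.25 ± 0.43 and 0.92 ± 0.33 for the smaller minus the larger series (both adjusted p = 0.321).

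Analysed alone, the smaller series gave 5 genes higher (Tlr1, Tlr2, Tlr7, Tlr13 and Myd88), with 19.1% of all genes passing. The larger series alone gave none of the 10, with 3.02% of all genes passing and unadjusted p-values under 0.05 for 5 of them where each group had its own mean in each series. NonResponder replicate 14 lies in that series and had the highest value of its group for Tlr1, Tlr2, Tlr6, Tlr7, Tlr8, Tlr13 and Myd88 and the lowest for Tlr3. Without this array the larger series alone gave 5 genes higher: Tlr2 (adjusted p = 0.0202), Tlr7 (0.0282), Tlr8 (0.0235), Tlr13 (0.0186) and Myd88 (0.0104). The share of all genes that passed in that fit is not given here, so these 5 cannot be set against it. Without all arrays that stand apart the larger series gave 4 (Tlr2, Tlr8, Tlr13 and Myd88), with 15.8% of all genes passing against 3.02% with them. Over both series without those arrays 9 genes passed, 8 higher and 1 lower, with 45.5% of all genes passing. Each of the 8 genes that passed with all arrays also passed when any 1 of the 50 Responder and NonResponder arrays was left out. Tlr3 passed as well without Responder replicate 20 or 21, and Tlr4 without NonResponder replicate 11. No difference of the 10 changed sign under the alternatives that refit all genes, which include the mean of a gene's probe sets and its most variable one. Another probe set of Tlr4 taken alone did differ in sign, at 0.05 (limma adjusted p = 0.681) against -0.17. Under those alternatives the adjusted p ranged from 0.00482 to 0.236 for Tlr6, from 0.000967 to 0.193 for Tlr9, from 0.00307 to 0.972 for Tlr3 and from 0.0149 to 0.581 for Tlr4.

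**Figure D2:**
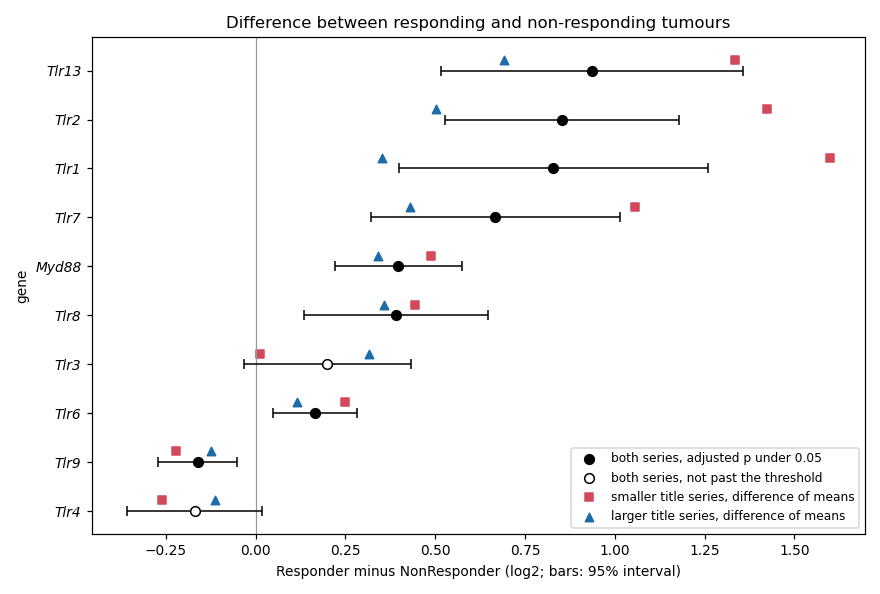
Responder minus NonResponder difference (log2, horizontal axis) of each gene, as fitted over both title series with its 95% interval (circles, filled where the adjusted p was under 0.05) and as the difference of means within the smaller (red squares) and larger (blue triangles) series. The smaller series lies further from 0 for all genes except Tlr3, and most clearly for Tlr1 and Tlr2.

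Responder against ControlIgG compares tumours that shrank with tumours given the control antibody. Of the 10 genes 5 were higher and none lower, with 37.3% of all genes passing, 14.5% higher and 22.8% lower. Responder and ControlIgG tumours have only the larger title series in common, so the fitted difference borrows from the smaller series, and the direct difference of means in the larger series is given beside it. Tlr13 had 6.36, 7.16 and 9.18 as lowest, median and highest value in ControlIgG tumours, a range that the Responder values given above overlapped. It was higher by 0.87 ± 0.26 (limma adjusted p = 0.00873), with 0.75 directly. Tlr2 was higher by 0.63 ± 0.20 (adjusted p = 0.0126), with 0.47 directly, and its ControlIgG values ran from 5.98 to 8.25.

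Tlr7 was higher by 0.56 ± 0.21 (limma adjusted p = 0.0327), with 0.44 directly, and Tlr6 by 0.20 ± 0.07 (adjusted p = 0.0278), with 0.17 directly. Myd88 was higher by 0.38 ± 0.11 (adjusted p = 0.00662), with 0.36 directly, and its ControlIgG values had a lowest of 8.60, a median of 9.29 and a highest of 10.2. Tlr3 differed by 0.33 (adjusted p = 0.0545), Tlr1 by 0.52 (0.107), Tlr8 by 0.27 (0.161), Tlr9 by -0.15 (0.0754) and Tlr4 by -0.05 (0.728), and none of these passed. In the larger series alone Tlr3 (0.39, adjusted p = 0.013) and Myd88 (0.36, adjusted p = 0.0319) were higher and the other 8 genes did not pass, with 31.5% of all genes passing. Without the arrays that stand apart Tlr3 passed beside the 5 genes above, at 0.42 (adjusted p = 0.00345, and between 4.8e-05 and 0.187 over all alternatives run).

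NonResponder against ControlIgG compares growing tumours under both antibodies. None of the 10 genes passed, with differences from -0.31 for Tlr1 to 0.13 for Tlr3. These groups have only the larger title series in common, so the fitted differences borrow from the smaller series. The direct differences of means in the larger series ran from -0.10 for Tlr8 to 0.08 for Tlr4, with -0.04 for Tlr1. Over all genes 0% passed in limma's test, and 838 had an unadjusted p under 0.05. NonResponder tumours had a Tlr2 median of 6.72 and ControlIgG tumours had the same 6.72, and Myd88 had medians of 9.25 and 9.29. Both comparisons with Responder tumours share those Responder arrays, and their differences are therefore not independent.

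Relapse against NonResponder compares tumours that regrew after shrinking with tumours that never shrank. Tlr2 and Myd88 were higher and Tlr9 lower, with 20.3% of all genes passing, 8.43% higher and 11.9% lower. Tlr2 had 7.13, 7.43 and 7.94 as lowest, median and highest value in Relapse tumours, so that every Relapse tumour lay above the NonResponder median of 6.72. It was higher by 0.71 ± 0.27 (limma adjusted p = 0.0481). Myd88, with 9.43 to 9.85 and a median of 9.67 in Relapse tumours, was higher by 0.41 ± 0.14 (limma adjusted p = 0.0399). Tlr9, with 5.11 to 5.53 and a median of 5.33, was lower, with a difference of -0.34 ± 0.09 (limma adjusted p = 0.0137). These Tlr9 values all lay under the lowest array median of 5.71.

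Tlr13 (0.80 ± 0.34, limma adjusted p = 0.0742), Tlr3 (0.46 ± 0.19, 0.0646) and Tlr7 (0.56 ± 0.28, 0.119) did not pass with all arrays. Tlr13 had 7.16, 7.98 and 8.34 as lowest, median and highest value in Relapse tumours, and Tlr3 had 9.0, 9.17 and 9.46. In the smaller series the 3 Relapse tumours lay above all 9 NonResponder tumours for Tlr2, Tlr3, Tlr13 and Myd88, as they did for 9.83% of all genes. Without the arrays that stand apart, which takes out Relapse replicate 6 and NonResponder replicate 14, Tlr3 (0.44), Tlr7 (0.72) and Tlr13 (0.92) passed beside Tlr2, Myd88 and Tlr9. These calls were sensitive to single arrays: none of the 10 genes passed without Relapse replicate 1, Tlr9 alone passed without replicate 3, 4, 5 or 6, and Tlr9 and Myd88 passed without replicate 2. The share of all genes that passed in these fits is not given here, so the calls cannot be set against it. Relapse against Responder gave no gene of the 10, with differences from -0.32 for Tlr1 to 0.26 for Tlr3. Over all genes 0% passed there in limma's test, and 803 had an unadjusted p under 0.05.

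Stabilization against NonResponder held the largest fitted difference of the 9 comparisons, that of Tlr13, on 3 arrays of the smaller series. Of the 10 genes 7 were higher and none lower, with 22.4% of all genes passing, 10.5% higher and 11.9% lower. The 3 Stabilization tumours had 9.96, 9.60 and 7.48 for Tlr13, against a highest value of 7.46 in the NonResponder tumours of the same series. Replicates 1 and 2 stood far above that range and replicate 3 just above it. Tlr13 was higher by 1.82 ± 0.47 (limma adjusted p = 0.00679).

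Tlr2 had 9.20, 8.64 and 7.70 in the Stabilization tumours, all above the 6.93 that was the highest NonResponder value of the series, and was higher by 1.56 ± 0.37 (limma adjusted p = 0.00381). For Myd88 the lowest Stabilization value, 9.45, also lay above the highest NonResponder value of the series, 9.39. How many of all genes separated these groups as fully as Tlr13, Tlr2 and Myd88 was not counted. For the 3 Relapse tumours of the same series, 9.83% of all genes lay above every NonResponder tumour. Tlr1 had 8.73, 8.83 and 6.70, of which the lowest lay inside the NonResponder range, and was higher by 1.54 ± 0.48 (adjusted p = 0.0189). Tlr7 (1.22 ± 0.39, adjusted p = 0.0207), Tlr8 (0.87 ± 0.29, 0.0254), Myd88 (0.73 ± 0.20, 0.00881) and Tlr6 (0.50 ± 0.13, 0.00762) were higher as well. Tlr3 stood at 7.5, 8.67 and 9.19, spread on both sides of the NonResponder median, and differed by -0.19 (adjusted p = 0.611). Tlr4 (0.24, adjusted p = 0.395) and Tlr9 (-0.17, 0.298) did not pass either.

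Stabilization replicates 1 and 2 are among the arrays that stand apart. Without replicate 1 none of the 10 genes passed, with Tlr2 at 1.21 (limma adjusted p = 0.458), and Tlr3 then differed by 0.29. Without replicate 2 Tlr2 alone passed (1.49, adjusted p = 0.0353), and its adjusted p lay between 8.5e-08 and 1.0 over all alternatives run. Without replicate 3 all 7 passed. The share of all genes that passed in these fits is not given here. Without all arrays that stand apart, replicate 3 remained alone, assumed to vary like the other groups, and none passed, with Tlr2 at 0.85 and Tlr13 at 0.39. Stabilization against Responder gave none of the 10, with differences from -0.38 for Tlr3 to 0.88 for Tlr13. Over all genes 0.319% passed there, and 2402 had an unadjusted p under 0.05.

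GrowthDelay against NonResponder rests on 2 tumours of the larger series. Their values were 5.70 and 5.79 for Tlr1, 6.51 and 6.47 for Tlr2, 6.24 and 7.12 for Tlr13 and 9.17 and 9.35 for Myd88, all inside the NonResponder ranges. None of the 10 genes passed, with differences from -0.61 for Tlr1 to 0.15 for Tlr3. The direct differences of means in the larger series ran from -0.89 for Tlr1 to 0.21 for Tlr3. Over all genes 0% passed in limma's test, and 567 had an unadjusted p under 0.05. ControlIgG against PBS gave none of the 10 either, with differences from -0.18 for Tlr3 to 0.28 for Tlr8. Only the larger series holds both of these groups, so their comparison rests on 14 ControlIgG and 3 PBS arrays. Over all genes 0.00550% passed there, and 240 had an unadjusted p under 0.05.

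Ordered by group medians, Tlr2, Tlr13 and Myd88 were highest in Stabilization tumours (8.64, 9.60 and 10.2), then in Relapse (7.43, 7.98 and 9.67) and Responder tumours (7.56, 8.11 and 9.62), whose order differed between the genes. NonResponder (6.72, 7.0 and 9.25), ControlIgG (6.72, 7.16 and 9.29) and PBS tumours (6.68, 6.94 and 9.07) followed, close to each other. The 2 GrowthDelay tumours had medians of 6.49, 6.68 and 9.26, the lowest of all groups for Tlr2 and Tlr13 and between NonResponder and ControlIgG tumours for Myd88. No difference between Stabilization and Responder tumours passed for Tlr2 (0.70, limma adjusted p = 0.401), Tlr13 (0.88, 0.413) or Myd88 (0.33, 0.473), and Stabilization replicates 1 and 2 are arrays that stand apart, while replicate 3 had 7.70 for Tlr2 and 7.48 for Tlr13. Relapse and Responder did not differ by the test either, and neither did NonResponder and ControlIgG, GrowthDelay and NonResponder or ControlIgG and PBS, while Stabilization and Relapse were not compared. Tlr3 followed another order, with its highest medians in Relapse (9.17) and Responder tumours (9.13) and its lowest in Stabilization tumours (8.67). Tlr4 had its highest median in Stabilization tumours (8.78), its 2 GrowthDelay values were 7.71 and 7.74, and its other group medians lay between 8.08 and 8.31.

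**Figure D3:**
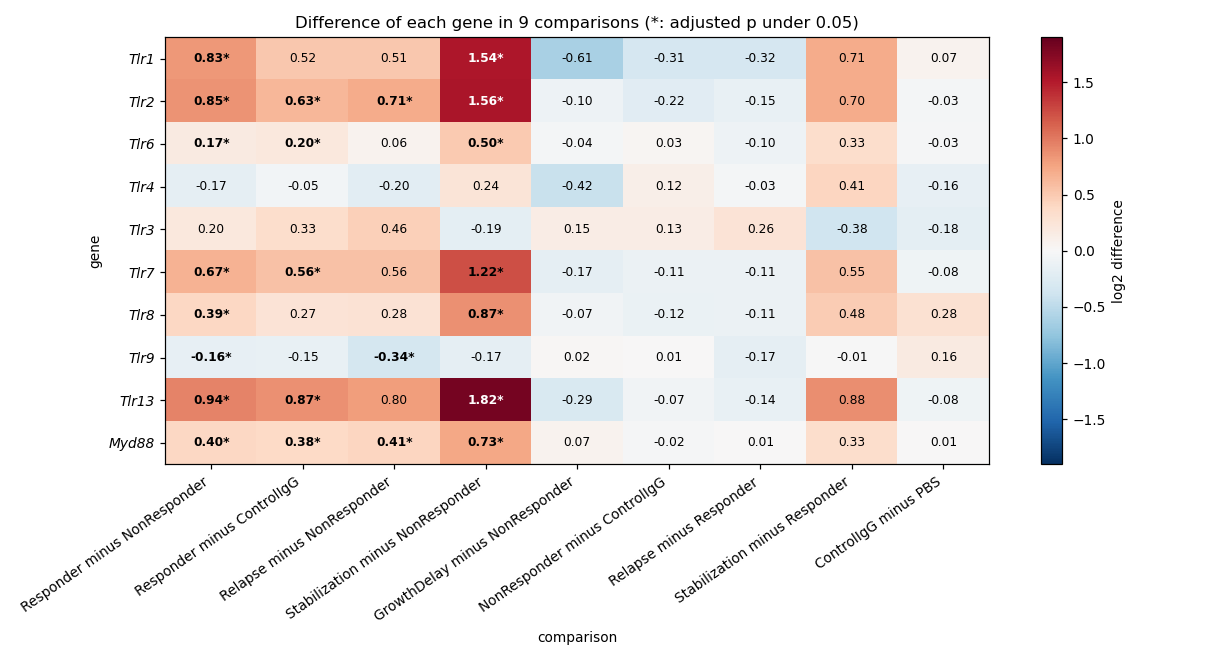
Fitted log2 difference of each gene (rows) in each of 9 comparisons (columns), the first-named group minus the second, with an asterisk and bold type where the adjusted p was under 0.05. Tlr1, Tlr2, Tlr6, Tlr7, Tlr8, Tlr13 and Myd88 passed in Responder and in Stabilization against NonResponder tumours, and no gene passed in the 5 columns on the right.

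Markers of cell types moved with these genes. All 9 macrophage markers (Adgre1, Csf1r, Cd68, Mertk, Fcgr1, C1qa, C1qb, C1qc and Mrc1) were higher in Responder than in NonResponder tumours, with a median difference of 0.89, or 1.26 in the smaller and 0.63 in the larger series. The mean of the macrophage list ran from 8.43 over a median of 10.5 to 11.9 in Responder tumours, against 8.31, 9.53 and 11.9 in NonResponder tumours. All 7 T cell markers (median 1.24), all 6 fibroblast markers (1.15) and 4 of 5 endothelial markers (0.50) were higher as well. These counts stand beside the 17.2% of all genes that were higher and the 29.8% that were lower in this comparison. Of the neutrophil markers 2 of 6 were higher, of the conventional dendritic cell markers 2 of 6, and of the plasmacytoid dendritic cell markers 1 of 7 was higher and 1 lower. No B cell marker of 7 passed, and 1 melanocyte marker of 7 was lower. Without the arrays that stand apart 8 of 9 macrophage, 7 of 7 T cell and 6 of 6 fibroblast markers were higher. The endothelial markers then came to 2 of 5 (median 0.30), and of the B cell markers 2 were higher and 2 lower. Over all genes 45.5% passed in that fit. In the larger series alone no macrophage, fibroblast or endothelial marker and 1 T cell marker passed, with 3.02% of all genes passing. In the same series without the arrays that stand apart 7 of 9 macrophage, 7 of 7 T cell, 1 of 6 fibroblast and 0 of 5 endothelial markers were higher, with 15.8% of all genes passing.

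The macrophage list followed the same comparisons as the receptors, and it was not the only list to do so. Its markers were higher in 7 of 9 cases in Responder against ControlIgG tumours, where 14.5% of all genes were higher. In Relapse against NonResponder tumours 4 of 9 were higher, with 8.43% of all genes. In Stabilization against NonResponder tumours 8 of 9 were higher, with 10.5% of all genes. No marker of this list passed in NonResponder against ControlIgG tumours. Its mean ran from 10.0 to 12.1 in Stabilization (median 11.9), from 9.60 to 10.9 in Relapse (median 10.5), from 8.91 to 11.6 in ControlIgG (median 9.62) and from 8.70 to 9.93 in PBS tumours (median 9.60), and the 2 GrowthDelay tumours had 8.75 and 9.44. The T cell and fibroblast lists had a similar order of groups. Their medians were 8.16 and 12.1 in Stabilization, 7.89 and 10.6 in Responder and 7.41 and 10.9 in Relapse tumours. In NonResponder tumours they were 6.44 and 9.53, in ControlIgG tumours 6.20 and 9.85 and in PBS tumours 5.81 and 9.31. In Stabilization against NonResponder tumours 5 of 6 neutrophil markers were also higher. Stabilization replicates 1 and 2, which stand apart, had macrophage means of 12.1 and 11.9. Replicate 3 had 10.0, inside the 9.26 to 10.1 of the NonResponder tumours of the same series. Its neutrophil mean of 7.23 lay just above their highest of 7.19. The marker counts of this comparison without replicates 1 and 2 are not given here. The part of any cell type in the differences of the receptors was not tested, since a bulk value does not show which cell carries the RNA.

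Within groups, the receptors varied with the same markers. The deviation of each array from the mean of its group and series was correlated between each gene and the mean of each of 12 marker lists, 120 pairs over 90 arrays, which removes the differences between groups described above. By permutation within group and series, with Benjamini-Hochberg adjustment over the 120 pairs, 77 pairs passed, 60 of them positive, and all 77 kept their sign without the 2 arrays farthest from the median of the list. Tlr13 correlated with the macrophage mean at Pearson's r = 0.96 (Spearman's rho = 0.93, permutation test, adjusted p = 2.9e-05 and 4.1e-05, the smallest these permutations allow), with r = 0.94 without the 2 farthest arrays. It was 0.93 in the smaller and 0.97 in the larger series.

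The same pair of measures gave r = 0.91 for Tlr7 (rho = 0.84), 0.90 for Tlr2 (rho = 0.83), 0.85 for Myd88 (rho = 0.76), 0.80 for Tlr1 (rho = 0.73) and 0.75 for Tlr8 (rho = 0.62), each at the same smallest adjusted permutation p. Without the arrays that stand apart these 5 genes still had r of 0.88, 0.85, 0.78, 0.73 and 0.67 in that order. The macrophage list was not alone in this. With the T cell mean r was 0.83 for Tlr7, 0.78 for Tlr2, 0.77 for Tlr13, 0.76 for Tlr1, 0.73 for Myd88 and 0.63 for Tlr8. With the conventional dendritic cell mean r was 0.81, 0.77, 0.79, 0.79, 0.73 and 0.68 in the same order of genes, and with the fibroblast mean it lay between 0.54 for Tlr8 and 0.80 for Tlr13. Whether these lists differ in how closely a gene follows them was not tested. Tlr6 was lower with the macrophage mean, at r = 0.46 (rho = 0.39, permutation test, adjusted p = 0.000157 and 0.00159). Tlr4 (r = 0.09), Tlr9 (r = -0.18) and Tlr3 (r = -0.19) did not pass with the macrophage mean (permutation test, adjusted p = 0.54, 0.152 and 0.153).

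The melanocyte mean ran from 7.40 to 11.3 in Responder tumours, against 9.35 to 11.4 in NonResponder tumours. Tlr3 correlated with it, at r = 0.74 (rho = 0.55, permutation test, adjusted p = 2.9e-05 and 4.1e-05). Without the 2 farthest arrays r was 0.61, it was 0.94 in the smaller and 0.45 in the larger series, and without the 7 arrays that stand apart it was 0.34 (adjusted permutation p = 0.00818). Responder replicates 20 and 21 and Stabilization replicate 1, the arrays with the lowest melanocyte means, had Tlr3 values of 7.33, 7.42 and 7.5, the 3 lowest of all 90 arrays. Tlr3 correlated negatively with the neutrophil mean, at r = -0.56 (rho = -0.53, permutation test, adjusted p = 2.9e-05 and 7.7e-05). Tlr1, Tlr2, Tlr7, Tlr8, Tlr13 and Myd88 all correlated negatively with the melanocyte mean, between -0.41 and -0.54. Without the arrays that stand apart Tlr7 (-0.33) and Tlr8 (-0.37) still passed, and Tlr1 (-0.25), Tlr13 (-0.24), Tlr2 (-0.13) and Myd88 (-0.02) did not (adjusted permutation p = 0.0758, 0.0822, 0.367 and 0.929).

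**Figure D4:**
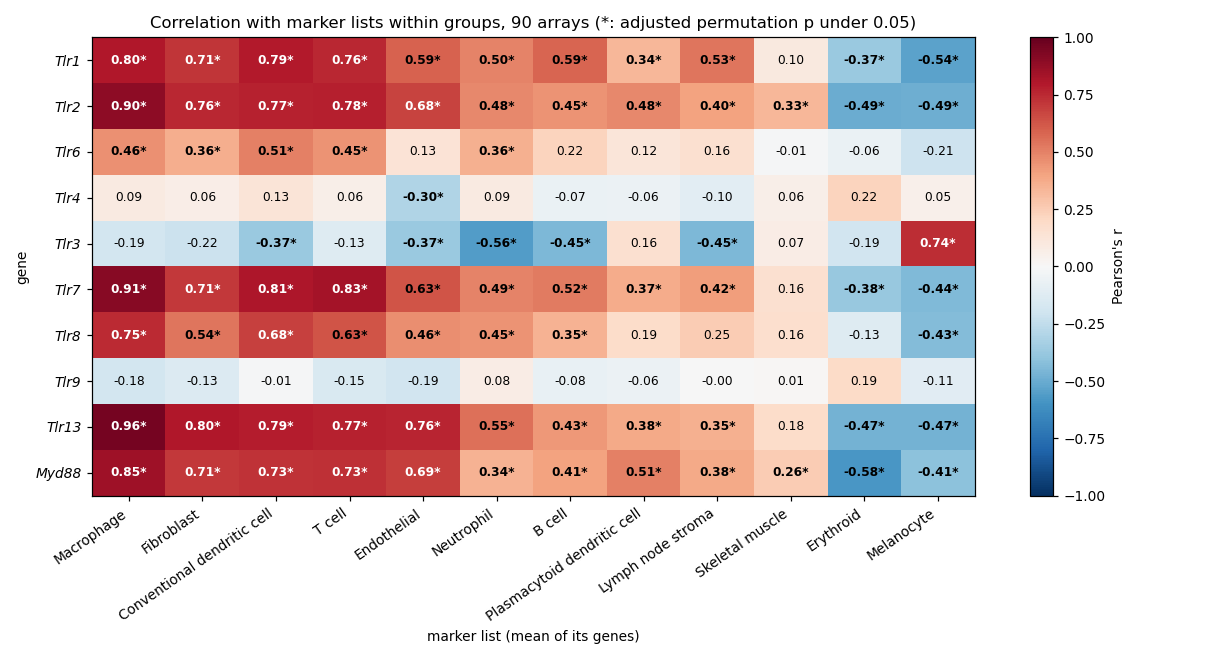
Pearson's r over 90 arrays between each gene (rows) and the mean of each marker list (columns), computed on deviations from the mean of each group and title series, with an asterisk where the adjusted permutation p was under 0.05. Tlr13, Tlr7, Tlr2, Myd88, Tlr1 and Tlr8 share the same red columns, Tlr3 is highest with the melanocyte list at 0.74, and Tlr4 and Tlr9 are pale.

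Among themselves, the 10 genes gave 45 pairs of such deviations, of which 22 passed the permutation test after adjustment, all positive. The closest were Tlr7 with Tlr13 (r = 0.90, rho = 0.82), Tlr2 with Tlr13 (r = 0.89, rho = 0.85) and Tlr13 with Myd88 (r = 0.89, rho = 0.85). These 3 pairs kept r of 0.86, 0.84 and 0.84 without the arrays that stand apart. The lowest was Tlr1 with Tlr3 at r = -0.25, which did not pass (adjusted permutation p = 0.074). This pair had -0.60 in the smaller series, -0.09 in the larger and 0.17 without the arrays that stand apart. Tlr3 with Myd88 had 0.07 over all arrays, -0.56 in the smaller series, 0.36 in the larger and 0.61 without the arrays that stand apart.

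The genes whose deviations were most like those of each receptor over the 90 arrays are given as a description, with no test. Closest to Tlr13 were Slc11a1, a metal transporter of phagosomes (r = 0.96), Apobec1 (0.96) and Tmem106a (0.96). Tlr2 was closest to Pld4 (0.92), to Cybb, a subunit of the phagocyte NADPH oxidase (0.92), and to Ly86, the partner of the receptor-like protein Cd180 (0.91). Tlr7 was closest to Lpxn (0.93), and Myd88 to Samhd1 (0.92), an enzyme that degrades deoxynucleotides. Tlr3 was closest to Ifih1 (0.87), another sensor of RNA duplexes, and to the interferon-induced genes Oas1a (0.87), Parp12 (0.84) and Ifit3 (0.84). Tlr8 was closest to Tm6sf1 (0.83), Tlr4 to Mtm1 (0.78), Tlr6 to Lair1 (0.72), Tlr9 to Sh2b2 (0.72) and Tlr1 to Znf41-ps (0.87).

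Other genes of the pathway were taken from 8 lists, 62 of whose 68 genes were measured. In Responder against NonResponder tumours their counts stand beside 17.2% of all genes higher and 29.8% lower. Among coreceptors and ligand carriers 4 of 6 were higher in Responder than in NonResponder tumours (list median 0.64, against -0.06 over all genes). They were Ly86 (0.94 ± 0.20, limma adjusted p = 0.000525), its partner Cd180 (0.62), the lipopolysaccharide-binding protein gene Lbp (0.67) and Cd36 (0.87), which presents lipids to Tlr2. Cd14 and Ly96, which load lipopolysaccharide onto Tlr4, were not among them. The other Toll-like receptors that were measured, Tlr12 (-0.08, adjusted p = 0.0579) and Tlr5 (0.03, 0.647), did not pass.

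Among genes of endosomal trafficking and processing 7 of 9 were higher (median 0.29). They included Unc93b1, which carries the nucleic acid receptors to endosomes (0.77 ± 0.17, limma adjusted p = 0.000617), and the proteases Ctss (0.68), Lgmn (0.57) and Ctsb (0.39), of which the first 2 cleave these receptors in endosomes. Of 4 adaptors 2 were higher and 1 lower. Pik3ap1, which links the receptors to phosphoinositide 3-kinase, was higher by 1.02 ± 0.22 (limma adjusted p = 0.000439), Ticam1 was higher by 0.18, Sarm1, known in human cells to hold back Ticam1, was lower, at -0.19, and Tirap, the bridge to Myd88, differed by 0.05 (adjusted p = 0.488).

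Of the proximal kinases and ligases 7 of 10 were higher (median 0.20), led by Ikbke (0.61 ± 0.11, limma adjusted p = 0.000118), a kinase of interferon regulatory factors, with Tab2 (0.30), Ikbkb (0.23) and Traf6 (0.17). Of 8 transcription factors 4 were higher (median 0.28): Irf1 (0.71), Rela (0.42), Irf7 (0.36) and Nfkb2 (0.34). Of the inhibitors 8 of 10 were higher (median 0.33), with Socs1 (0.72 ± 0.13, adjusted p = 0.000106) and Tnfaip3 (0.72 ± 0.15, 0.000266) first, and Tnip1 (0.37) and Cyld (0.27) after them. Of the induced cytokines and chemokines 7 of 13 were higher and 2 lower (median 0.42). Over all genes 17.2% were higher and 29.8% lower in this comparison. The chemokine genes Ccl3 (1.33 ± 0.22, limma adjusted p = 5.2e-05) and Ccl4 (0.76) and the cytokine gene Tnf (0.40) were higher, and the neutrophil chemokine gene Cxcl1 was lower (-0.27, adjusted p = 0.00234).

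Without the arrays that stand apart 4 of 6 coreceptors, 7 of 9 endosomal genes, 7 of 10 kinases and ligases, 4 of 8 transcription factors and 8 of 10 inhibitors were higher, the same counts as with all arrays. Of the adaptors 1 was then higher and 1 lower, and of the cytokines and chemokines 7 were higher and 2 lower. Over all genes 45.5% passed in that fit. In the larger series alone, with 3.02% of all genes passing, no coreceptor, endosomal gene, kinase, ligase or transcription factor passed, and 2 of 10 inhibitors, 1 of 4 adaptors and 1 of 13 cytokines and chemokines were higher. The medians of these 7 lists lay between 0.14 and 0.42 there. In the same series without the arrays that stand apart, with 15.8% of all genes passing, 2 of 6 coreceptors, 3 of 9 endosomal genes, 2 of 4 adaptors, 3 of 10 kinases and ligases, 1 of 8 transcription factors, 6 of 10 inhibitors and 3 of 13 cytokines and chemokines were higher, and 1 of the last was lower. In Responder against ControlIgG tumours, where 14.5% of all genes were higher, 2 coreceptors, 6 endosomal genes, 5 kinases and ligases, 5 transcription factors and 5 inhibitors were higher, with Ccl3 higher (1.34) and Cxcl1 lower (-0.43). In Stabilization against NonResponder tumours, where 10.5% of all genes were higher, 4 coreceptors, 5 endosomal genes and 7 cytokines and chemokines were higher and no transcription factor passed. Cd14, singled out after its values were seen, was higher there by 1.94 ± 0.41 (limma adjusted p = 0.00214). Of the 3 Stabilization arrays replicates 1 and 2 stand apart, and the list counts and the Cd14 value without them are not given here. In Relapse against NonResponder tumours, where 20.3% of all genes passed and 8.43% were higher, 0 of 6 coreceptors, 1 of 9 endosomal genes (Ctsb, 0.37), 4 of 10 kinases and ligases, 3 of 8 transcription factors and 3 of 10 inhibitors were higher. Of the adaptors 2 of 4 were higher and 1 lower, and of the cytokines and chemokines 1 of 13 was higher and 1 lower.

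**Figure D5:**
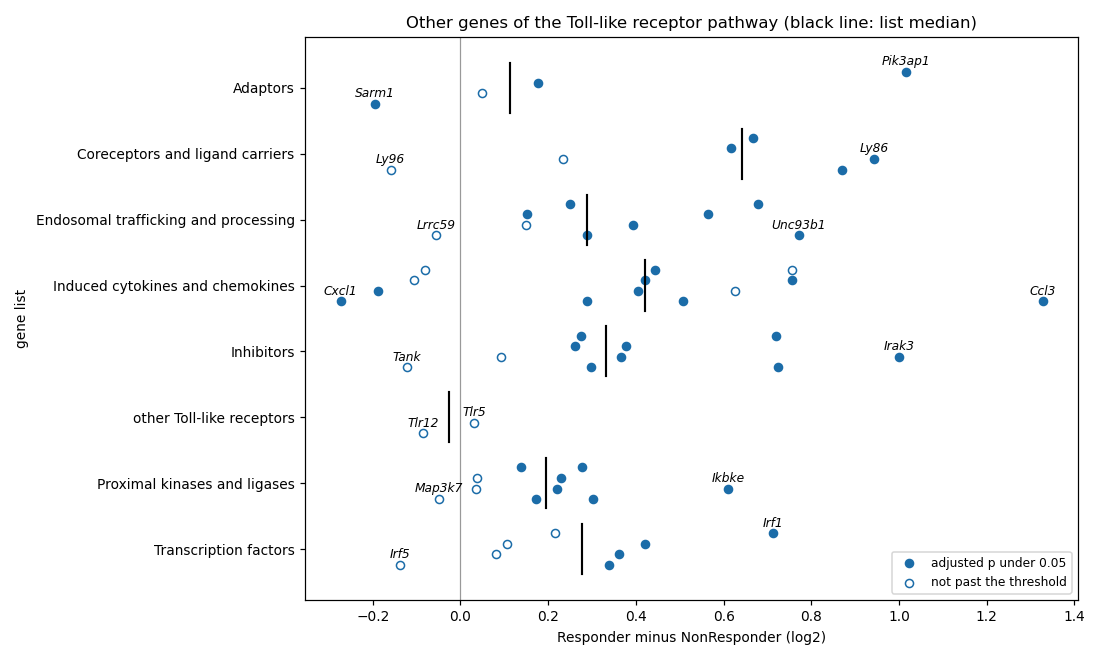
Responder minus NonResponder difference (log2, horizontal axis) of the other pathway genes by list, filled where the adjusted p was under 0.05, with a black line at each list's median and the names of each list's extreme genes. Most points lie right of 0, Ccl3 furthest at 1.33, and the other Toll-like receptors Tlr5 and Tlr12 lie near 0.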

How the data were processed

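The deposited table holds log2 expression values of 90 arrays, which the authors normalized with RMA (robust multi-array average), per the submitters' processing notes, where limma is named as well; no version, array list or genome build is given in the sources used here. Of 45101 probe sets, 64 were controls, 34945 had 1 gene symbol in the platform annotation, 932 had several and 9160 were not listed. This gave 18193 genes, each represented by its probe set of highest mean. No column was left unmapped.

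Every gene was fitted over all arrays with lmFit and eBayes of limma 3.58.1 (R 4.3.3), with terms for group and title series, two-sided, with Benjamini-Hochberg adjustment over all genes. A gene counts as higher or lower at an adjusted p under 0.05. The procedure was tested on simulated data. Correlations used deviations from the mean of each group and series, with 100000 permutations within group and series. Array means of marker lists are means of log2 values.

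The 10 genes, the pathway lists (8) and the marker lists (12, with 71 of 78 genes measured) were chosen with earlier results of these data known. All 10 genes are named, with up to 4 genes of each pathway list by the smallest p for Responder minus NonResponder. Alternatives covered the block, scaling, the choice of probe set, dim genes, array weights, the intensity trend and leaving out arrays or series. Weights by REML did not converge, so gene-by-gene weights were used. Leaving out the arrays that stand apart was chosen after seeing the data. Precision is limited by the number of arrays, since arrays give no read depth.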

Additional observations from a re-analysis of the deposited data

Results flagged for a closer look

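In the PBS group the Tlr2 value of replicate 6 lay apart from the others, at 6.17, while the other 6 PBS tumours lay between 6.63 and 6.98. Its gap to the nearest other value took 0.570 of the group's whole range, just past the limit of 0.568 of Dixon's test for 7 samples. Chance alone gives such a gap in about 1 of 20 groups, and 20 groups of values were examined.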

How the results depend on the processing

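For Responder against NonResponder 8 of the 10 genes passed. The count was 3 with dim genes left out, since 5 of the genes lie under the limit (a mean of 7.01), 0 in the larger title series alone, 5 in the smaller alone, 4 in the larger without the arrays that stand apart and 5 in the larger without NonResponder replicate 14. Leaving out 1 array at a time gave 5 to 9, where the 5 belongs to the larger series alone and the rest of this range, from 8, to both series. For Responder against ControlIgG (5 genes) it was 3 with dim genes left out, 8 with array weights, 2 in the larger series alone and 3 there without the arrays that stand apart. For Relapse against NonResponder (3 genes) it was 1 without the block for title series, 0 after quantile normalization, 1 with dim genes left out, 9 with array weights, 0 in each series alone, 6 without the arrays that stand apart and 0 to 2 with 1 Relapse array left out. For Stabilization against NonResponder (7 genes) it was 3 with dim genes left out, 0 without the arrays that stand apart and 0 to 7 with 1 Stabilization array left out. For Stabilization against Responder (0 genes) it was 7 with array weights and 0 to 3 with 1 array left out. Of the 120 correlations 77 passed, and 38 in the smaller series alone. Over all genes the share that passed moved as well. For Responder against NonResponder it was 47.0% with all arrays and 45.5% without those that stand apart. It was 3.02% in the larger series alone and 19.1% in the smaller alone. For Relapse against NonResponder 1533 genes were higher and 2164 lower, and 333 and 994 after quantile normalization. For other settings, array weights among them, no share is given here. The cause of the changes in the counts of the 10 genes was not tested, except that leaving out dim genes removes 5 of the 10 genes from the test.

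The sign changed in 5 values of single genes, none of which had passed. Responder minus ControlIgG for Tlr4 came to 0.0073 with the mean of all probe sets. Relapse minus NonResponder for Tlr6 came to -0.054 under median centring and to between -0.0072 and 0.12 with 1 Relapse array left out. Stabilization minus NonResponder for Tlr3 came to 0.44 without the arrays that stand apart and to between -0.56 and 0.29 with 1 Stabilization array left out. Single genes were examined only in the 4 comparisons with calls, where 911 other values kept their direction and side of the threshold, 81 lost and 33 gained a call.

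Under median centring the genes that passed for Responder against NonResponder split into 6 higher and 2 lower, against 7 and 1. Over all genes 18.4% of those that passed were then higher, against 36.7%, and 54.4% with dim genes left out. For Responder against ControlIgG these shares were 24.4%, against 38.9%, and 64.2%, for Relapse against NonResponder 10.8%, against 41.5%, and 79.4%, and for Stabilization against NonResponder 31.6%, against 46.9%. After quantile normalization the Relapse share was 25.1%. Median centring moved the median of all genes in Relapse against NonResponder to -0.18, against -0.06. No paired analysis was possible because the labels give the groups no shared replicate numbers.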
